A study of Mus musculus with 6 samples.

Results

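The CTCF binding sites around the alpha and beta globin gene clusters were described in mouse erythroblasts with and without the protein BRD2. Sites were chosen by position alone. They are the regions of CTCF enrichment that lie inside chr11 from 32.0 to 32.4 Mb, which holds the alpha globin genes, and inside chr7 from 110.80 to 111.20 Mb, which holds the beta globin genes (mm9). The windows held 32 of the 48367 CTCF regions found in any of the 3 libraries, 23 in the alpha window and 9 in the beta window. A region is a set of overlapping peaks from the 3 libraries, and sites are numbered along the chromosome within each window.

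CTCF, a DNA-binding protein with zinc fingers, marks many insulators and domain borders, where it can stop cohesin and limit which promoters an enhancer reaches. The alpha globin cluster holds the embryonic gene Hba-x and the adult genes Hba-a1 and Hba-a2, which lie in a tandem duplication, each with a theta-like gene (Hbq1b or Hbq1a) next to it. Its enhancers lie upstream of Hba-x, in and near the housekeeping gene Nprl3. The beta globin cluster holds the embryonic genes Hbb-y and Hbb-bh1 and the adult genes Hbb-b1 and Hbb-b2. Its enhancers form the locus control region, upstream of Hbb-y, and olfactory receptor genes flank the cluster. GATA1 is the erythroid transcription factor that drives the globin genes in red cell precursors.

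Chromatin bound by CTCF was precipitated with an antibody and sequenced from G1E-ER4 cells, a cultured line of GATA1-null mouse erythroblasts that carries GATA1 fused to the estrogen receptor. All 3 groups lacked endogenous GATA1 and were given 100 nM estradiol for 24 hours, which activates the fusion protein. They were wild type G1E-ER4 cells and the CRISPR/Cas9-made lines D_Brd2KO (clone D) and C8_Brd2KO (clone C8), each a clone in which BRD2, a BET protein that reads acetylated histones, was not detectable. Each gave 1 CTCF library, so the genotypes could not be compared by a test, and the gap between the BRD2-null clones is the one measure of spread. Peak lists hold no measure of BRD2 itself, so the labels could not be checked.

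The deposited lists held 40271 peaks in wild type, 29769 in clone D and 32308 in clone C8. Their sequencing depth is unknown here. Enrichment (the authors' fold value per peak) is not on one scale across lists: its median over a whole list was 22.7 in wild type, 17.4 in clone D and 21.5 in clone C8. Ranks within a list are therefore set side by side below, with rank 1 the strongest peak. A site missing from a list was not called there, which does not show that it was unbound.

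The duplicated alpha globin unit shows how CTCF sites lie among the genes, and its sequence may bear on how far its sites can be told apart. A pair of shared sites lay just past Hba-a1 (alpha sites 14 and 15) and another just past Hba-a2 (alpha sites 16 and 17). In the RefSeq promoters of GRCm38.p6, which is not the build of the peaks, the promoters of both theta-like genes held a match to the CTCF core consensus, and those of Hba-x, Hba-a1 and Hba-a2 did not. The 100 bases before each annotated start are on the plus strand. Capitals mark the match, on the minus strand and with 1 mismatch, whose first base lies 30 bases before the start.
Hbq1b (chr11:32286864-32286963): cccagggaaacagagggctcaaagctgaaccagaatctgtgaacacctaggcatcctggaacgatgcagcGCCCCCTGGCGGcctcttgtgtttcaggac
Hbq1a (chr11:32299969-32300068): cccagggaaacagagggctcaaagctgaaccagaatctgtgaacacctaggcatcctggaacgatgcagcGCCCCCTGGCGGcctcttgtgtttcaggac
Hba-a1 (chr11:32283572-32283671): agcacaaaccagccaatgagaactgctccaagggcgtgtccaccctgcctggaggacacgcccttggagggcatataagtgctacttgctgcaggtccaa
Hba-a2 (chr11:32296392-32296491): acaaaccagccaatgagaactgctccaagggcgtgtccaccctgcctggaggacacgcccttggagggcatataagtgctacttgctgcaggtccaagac

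The Hbq1b and Hbq1a promoters were identical at 286 of 300 bases and shared the match. Those of Hba-a1 and Hba-a2 were identical at 297 of 297 aligned bases. Over all 32851 promoters of 300 bases, 4.33% held a match on either strand with at most 1 mismatch. Of the 12 genes listed for the alpha neighbourhood 11 had a promoter in the table and 3 held a match: Hbq1b, Hbq1a and Il9r, the interleukin 9 receptor gene. Of the 7 beta globin gene names listed, 4 had a promoter there (Hbb-bt, Hbb-bs, Hbb-bh2 and Hbb-y) and 0 held a match. The names Hbb-b1, Hbb-b2 and Hbb-bh1 were not found, and whether those genes stand there under another name was not checked. A match is a description of the letters, not a bound site.

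Nearly all sites of the alpha window were called with and without BRD2, and those of the beta window were called in all lists about as often as regions elsewhere. All 3 lists held 21 of 23 regions in the alpha window and 5 of 9 in the beta window, 26 of 32 together, against 49.5% of regions over the whole series. The windows held 29 wild-type peaks. Clone D overlapped 26 of them (89.7%, exact 95% binomial interval 72.6 to 97.8), against 63.1% of all wild-type peaks. Clone C8 overlapped 27 (93.1%, 77.2 to 99.2), against 65.3%, and both clones together overlapped 26 (89.7%), against 59.8%. Intervals cover counting error only.

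In wild type the alpha sites were mostly stronger than the median CTCF peak, and the beta sites were mixed. The median enrichment was 40.7 in the alpha window and 34.7 in the beta window, against 22.7 over the list. Beta sites 1, 5 and 9 were below that list median, with 17.8, 21.8 and 9.73. In clone D it was 19.3 and 14.8 against 17.4, and in clone C8 it was 29.1 and 26.5 against 21.5. The beta median of clone D was thus below that of its list. There, beta sites 1, 4, 5 and 7 were below the list median and beta sites 2, 3 and 6 above it (26.1, 29.6 and 40.7). A −log10 p of at least 10 was reached by 22 of 23 wild-type peaks in the alpha window and 3 of 6 in the beta window, against 55.8% of the list. Both clones overlapped 24 of these 25, against 90.9% of all wild-type peaks with such a value. With all wild-type peaks divided into 10 classes of enrichment and weighted to the classes of the globin peaks, both clones overlapped 85.8%, against 89.7% in the windows. The share overlapped in the windows is thus near that of peaks of equal strength.

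The alpha window was dense in CTCF peaks and the beta window was not. The alpha window of 400 kb held 23 peaks in wild type, 21 peaks in clone D and 22 in clone C8. Autosomal windows of that width had a median of 4, 3 and 3 peaks, and 2.76%, 2.01% and 2.38% of them held at least as many as the alpha window. The beta window held 6, 7 and 6 peaks, a number reached by 41.2%, 27.9% and 34.7% of windows.

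**Figure D1:**
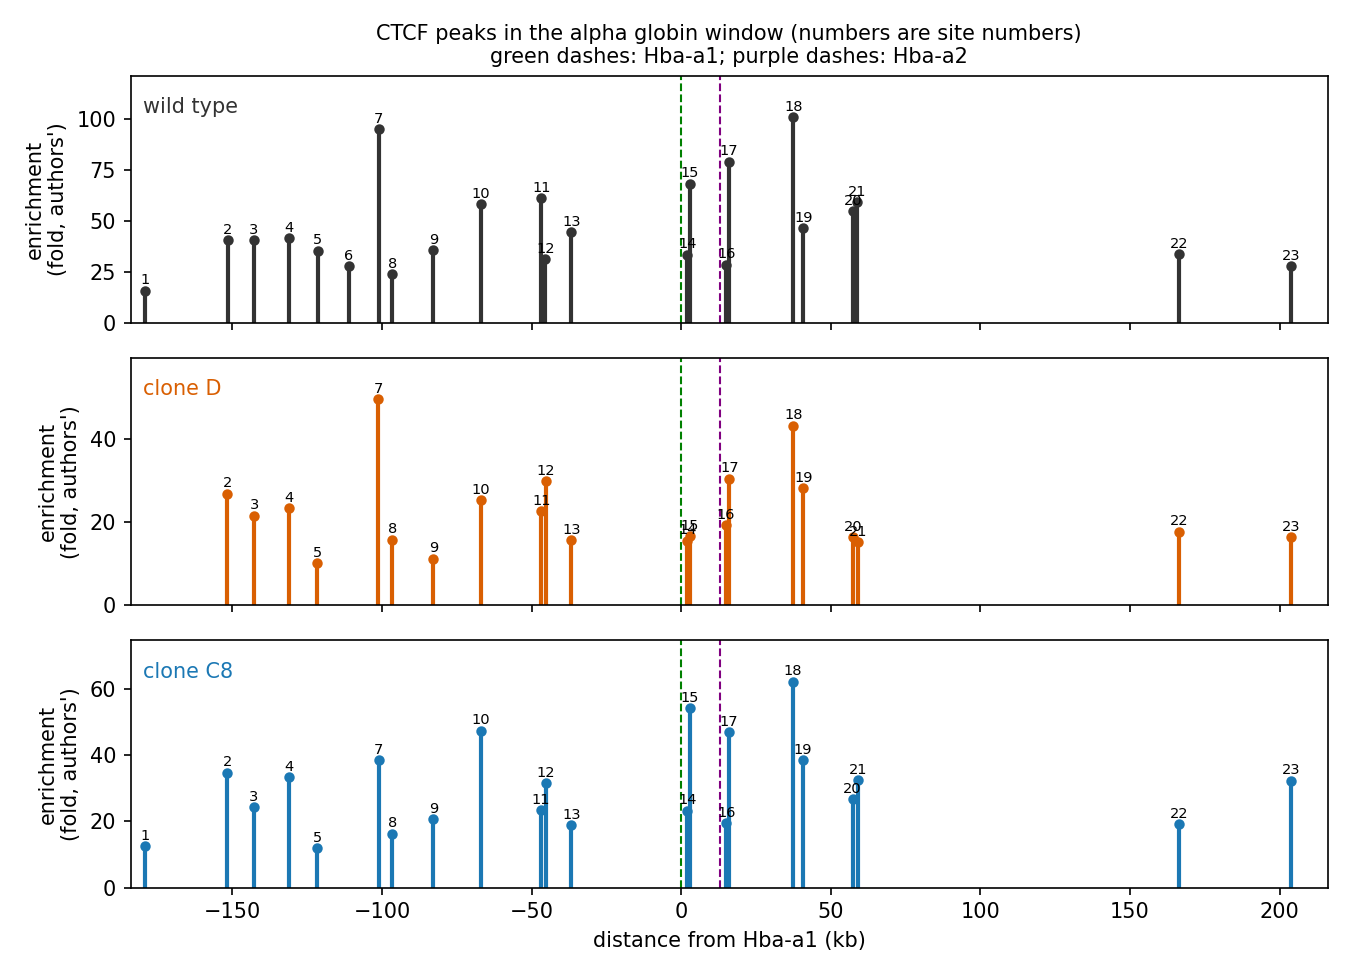
CTCF peaks in the alpha globin window. Enrichment (fold, the authors' value, with a scale of its own in each panel) is plotted against the distance from Hba-a1 in kb, with a panel for each library and dashes at Hba-a1 and Hba-a2. Sites 14 to 17 lie beside the adult genes, sites 2 to 13 upstream and sites 18 to 23 beyond, and site 18 is among the strongest in every panel.

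Of the 3 alpha sites that lay last before the genes on the enhancer side, sites 11 and 13 were ranked weaker in both clones. Site 12 was ranked stronger by enrichment but not by −log10 p, where its changes among the regions common to all lists were -2.7 points for clone D and 6.4 for C8. Positions are given against Hba-a1 near 32.184 Mb and Hba-a2 near 32.197 Mb, rounded to 1 kb and not checked against an mm9 annotation, and a negative distance is upstream. Upstream of Hba-a1, where Nprl3 and the enhancers lie, 11 of 13 regions were called in all lists. Alpha sites 11, 12 and 13 lay at -46.8, -45.4 and -36.7 kb from Hba-a1, and no list had a peak between site 13 and site 14, a distance of 38.76 kb.

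Alpha site 11 (chr11:32136934-32137480) had an enrichment of 61.4 in wild type (rank 4086), 22.8 in clone D (rank 10425) and 23.4 in clone C8 (rank 14566). Its neighbour alpha site 12 (chr11:32138284-32138985), 1.43 kb away, had 31.5 in wild type (rank 14943), 29.9 in clone D (rank 6086) and 31.6 in clone C8 (rank 9556). The order of the pair was therefore turned around: site 11 had 1.95 times the enrichment of site 12 in wild type, 0.763 times in clone D and 0.741 times in clone C8. By −log10 p the ratios were 1.86, 0.971 and 1.21, so that the order turned in clone D only.

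Over the whole series, 1309 pairs of adjacent regions called in all lists lay less than 2 kb apart, and the order by enrichment was reversed in both clones in 11.1% of them (9.7% by −log10 p). The windows held 4 such pairs, of which 1 was reversed by enrichment and 0 by −log10 p. Alpha site 13 (chr11:32147016-32147486), the last before the genes, had an enrichment of 44.7 in wild type (rank 8800), 15.6 in clone D (rank 16591) and 18.9 in clone C8 (rank 18390). It stood at 21.9% from the top of the wild-type list, and past the middle of the clone lists at 55.7% and 56.9%.

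Beside the adult genes, each copy of the duplicated unit carried a weaker and a stronger CTCF site, in the same order in every list. Alpha site 14 (chr11:32185686-32186338), 2.0 kb past Hba-a1, had an enrichment of 33.6 in wild type (rank 13839), 15.6 in clone D (rank 16914) and 23.3 in clone C8 (rank 14600). Alpha site 15 (chr11:32186613-32187227), 2.9 kb past Hba-a1, had 68.4 (rank 2686), 16.7 (rank 15582) and 54.1 (rank 2149). Site 14 reached 0.491 of the enrichment of site 15 in wild type, 0.935 in clone D and 0.430 in clone C8.

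In the other copy, alpha site 16 (chr11:32198753-32199322), 2.0 kb past Hba-a2, had an enrichment of 28.7 in wild type (rank 16199), 19.3 in clone D (rank 13184) and 19.4 in clone C8 (rank 17662). Alpha site 17 (chr11:32199802-32200387), 3.1 kb past Hba-a2, had 79.3 (rank 1447), 30.5 (rank 5742) and 46.9 (rank 3585). The centres of sites 14 and 16 were 13026 bp apart and those of sites 15 and 17 were 13174 bp apart. In GRCm38.p6 the Hbq1b and Hbq1a promoters are 13105 bp apart, and they lie 3292 and 3577 bp past the Hba-a1 and Hba-a2 promoters. Whether sites 15 and 17 cover the matches printed above was not tested, since the peaks are on mm9.

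Site 15 differed between the BRD2-null clones more than between wild type and clone C8. It was at 6.67% of the wild-type list, 6.65% of the clone C8 list and 52.3% of the clone D list. Reads from stretches identical in both copies can be placed on the other copy or dropped, and the treatment of such reads by the authors is not stated. Only promoters were compared, where Hbq1b and Hbq1a were identical at 286 of 300 bases, and not the sequence under sites 14 to 17. Whether such reads bear on site 15 was not tested. The values of sites 14 to 17 are thus uncertain. Without them, all lists shared 17 alpha regions, and both clones overlapped 88.0% of the wild-type peaks of both windows.

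Beyond Hba-a2, all 8 regions were called in every list. Alpha site 18 (chr11:32221106-32221800), 24.5 kb past Hba-a2, had an enrichment of 101 in wild type (rank 371), 43.4 in clone D (rank 1812) and 62.2 in clone C8 (rank 1057). It was the strongest shared site of the window in wild type and clone C8 and the second in clone D, and the strongest by −log10 p in all lists (88.0, 93.6 and 89.9). Alpha site 19 (chr11:32224481-32225067) had 46.4 (rank 8076), 28.3 (rank 6856) and 38.6 (rank 6370). Among the regions common to all lists it was somewhat better placed in both clones. As percent of each list it stood at 20.1% in wild type, 23.0% in clone D and 19.7% in clone C8.

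A further close pair lay 44.3 and 46.0 kb past Hba-a2. Alpha site 20 (chr11:32240981-32241680) had an enrichment of 54.8 in wild type (rank 5534), 16.5 in clone D (rank 15782) and 26.6 in clone C8 (rank 12562). Alpha site 21 (chr11:32242624-32243351) had 59.5 (rank 4283), 15.3 (rank 17145) and 32.4 (rank 9022). Both were ahead in wild type. By −log10 p, site 21 was at 24.4% of the regions common to all lists in wild type, 44.6% in clone D and 27.0% in clone C8, so clone C8 was close to wild type on that measure.

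After a stretch of 107.4 kb without a peak, the last sites lay on the Sh3pxd2b and Ubtd2 side of the cluster. Alpha site 22 (chr11:32350079-32350619) had an enrichment of 33.7 in wild type (rank 13327), 17.8 in clone D (rank 14623) and 19.2 in clone C8 (rank 18175). Alpha site 23 (chr11:32387451-32388085) had 27.8 (rank 16417), 16.5 (rank 15791) and 32.3 (rank 9072). The clones thus differed from each other at site 23 by more than clone D differed from wild type.

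The far upstream sites formed a series with a median spacing, over the shared regions of the window, of 11.9 kb. Alpha site 2 (chr11:32032042-32032762) had an enrichment of 40.6 in wild type (rank 10396), 26.9 in clone D (rank 7719) and 34.7 in clone C8 (rank 8110). Alpha site 3 (chr11:32040861-32041567) had 40.7 (rank 10376), 21.6 (rank 11216) and 24.3 (rank 14181). Alpha site 4 (chr11:32052630-32053194) had 41.6 (rank 9765), 23.4 (rank 9946) and 33.3 (rank 8751). These 3 were of nearly equal enrichment in wild type. Among the regions common to all lists, site 2 was better placed in both clones by enrichment and site 3 was worse placed in both. At site 4 the clones lay on either side of wild type. As percent of each list, site 2 stood at 25.8% in wild type, 25.9% in clone D and 25.1% in clone C8. Site 3 stood at 25.8%, 37.7% and 43.9%, and site 4 at 24.2%, 33.4% and 27.1%. By −log10 p, site 4 was better placed in both clones, with changes among the regions common to all lists of -20.2 points for clone D and -14 for C8.

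Alpha site 5 (chr11:32062039-32062711) had an enrichment of 35.5 in wild type (rank 12910), 10.1 in clone D (rank 23760) and 11.9 in clone C8 (rank 26150). By enrichment it was the weakest shared site of the window in both clones. Alpha site 7 (chr11:32082576-32083140), at -101.1 kb from Hba-a1, had 95.2 (rank 525), 49.7 (rank 895) and 38.6 (rank 6368). It was the strongest alpha site of clone D and the second in wild type, while it held place 5 among the shared sites in clone C8.

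Alpha site 8 (chr11:32087135-32087738) had an enrichment of 23.8 in wild type (rank 18872), 15.8 in clone D (rank 16450) and 16.3 in clone C8 (rank 20917). Alpha site 9 (chr11:32100964-32101385) had 35.7 (rank 12373), 11.2 (rank 22178) and 20.7 (rank 16582). Alpha site 10 (chr11:32116701-32117403) had 58.2 (rank 4648), 25.3 (rank 8746) and 47.4 (rank 3538). Among the regions common to all lists, site 9 was placed worse in both clones, while at sites 8 and 10 wild type lay between the clones.

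The alpha sites not called in every list were weak or moderate. Alpha site 1 (chr11:32004724-32005127), at the far upstream end, was called in wild type (enrichment 15.8, −log10 p 6.97, rank 28854) and clone C8 (12.6, 8.65, rank 25549). Its false discovery rate in the authors' column was 0.279 in wild type and 0.0122 in clone C8. Alpha site 6 (chr11:32072692-32072970) was called in wild type only, with an enrichment of 27.8, a −log10 p of 13.1 and rank 16417. It was the one wild-type peak of the windows with a −log10 p of at least 10 that neither clone overlapped.

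**Figure D2:**
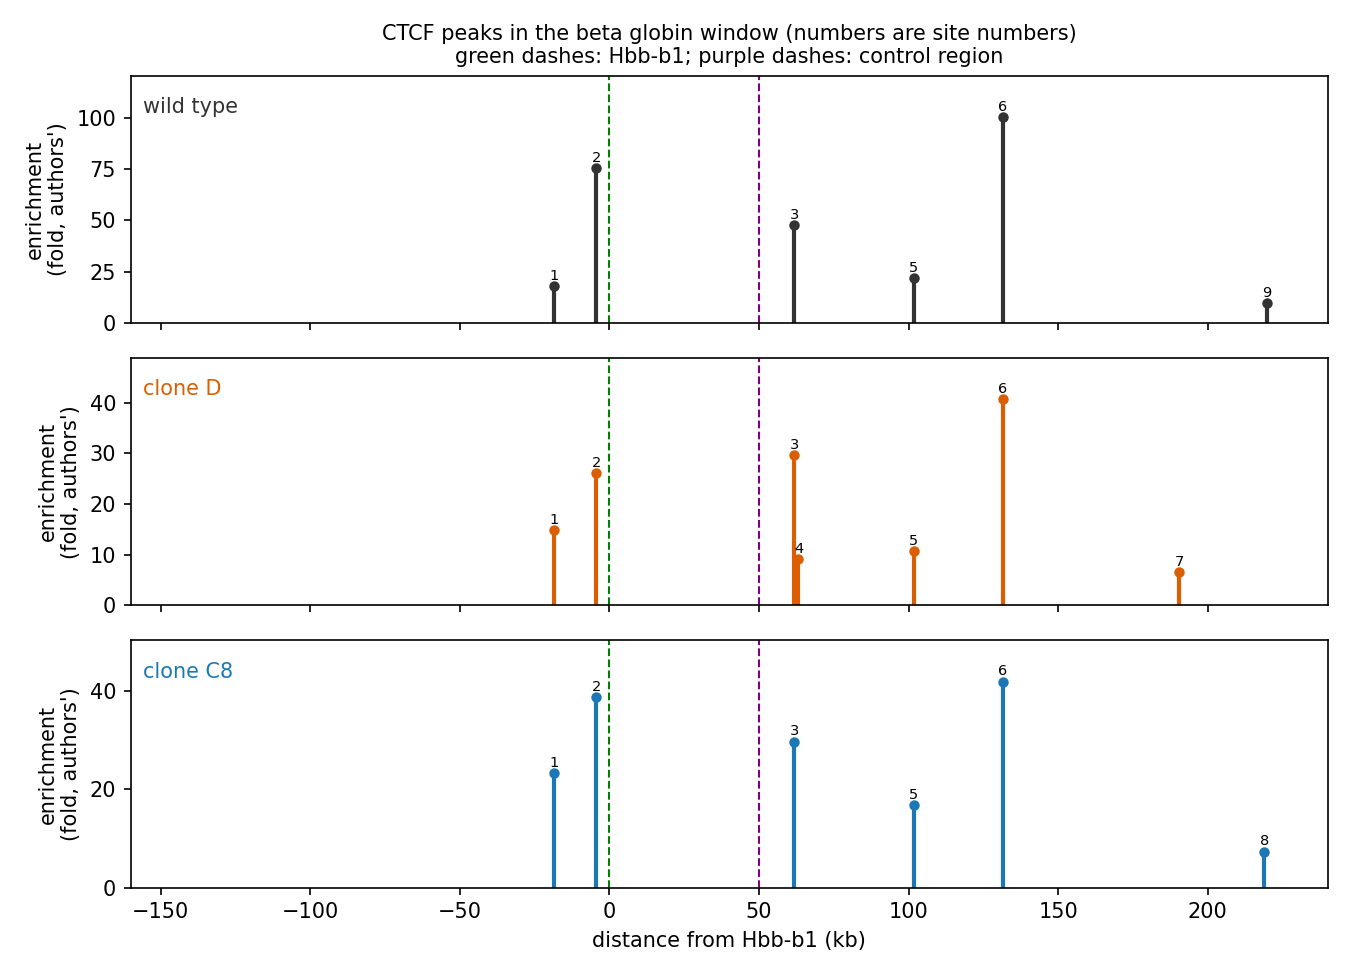
CTCF peaks in the beta globin window. Enrichment (fold, the authors' value, with a scale of its own in each panel) is plotted against the distance from Hbb-b1 in kb, with a panel for each library and dashes at Hbb-b1 and the control region. No list has a peak between the dashed lines, sites 2 and 3 lie on either side of them, and site 6 is the strongest in each panel.

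In the beta window, no CTCF site lay between the stated positions of Hbb-b1 and the control region, and sites lay on either side. Positions are given against Hbb-b1 near 110.96 Mb and the control region near 111.01 Mb, rounded to 10 kb and likewise not checked, and a negative distance is away from the control region. The stretch between these positions held 0 regions of any list. The nearest sites on its sides, beta sites 2 and 3, were 66.1 kb apart. The distance of site 2 from Hbb-b1, -4.3 kb, is within the rounding of that position. Hbb-b2 and the other genes of the cluster were not placed, so beta sites 1 and 2 need not lie outside the genes.

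Beta site 2 (chr7:110955388-110955989), at -4.3 kb from Hbb-b1, had an enrichment of 75.3 in wild type (rank 1766), 26.1 in clone D (rank 8238) and 38.8 in clone C8 (rank 6146). It was weaker placed in both clones, at 4.39% of the wild-type list against 27.7% and 19.0%. Beta site 3 (chr7:111021550-111022086), 11.8 kb beyond the control region, had 47.6 (rank 7559), 29.6 (rank 6143) and 29.7 (rank 10512). As percent of each list, site 3 stood at 18.8% in wild type, 20.6% in clone D and 32.5% in clone C8. Among the regions common to all lists, clone C8 was weaker than wild type at both sites (18.3 points at site 2 and 12.2 at site 3), while clone D was weaker at site 2 (27.0 points) and slightly stronger at site 3 (-5.8 points).

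Further out, on the sides where olfactory receptor genes lie, came a strong site and weak ones. Beta site 6 (chr7:111091164-111091849), 81.5 kb beyond the control region, had an enrichment of 100.4 in wild type (rank 416), 40.7 in clone D (rank 2366) and 41.9 in clone C8 (rank 5103). It was the strongest beta site in every list. Beta site 5 (chr7:111061532-111061810) had 21.8 (rank 20368), 10.7 (rank 22655) and 16.8 (rank 19936). It stood at 50.6% of the wild-type list, 76.1% of the clone D list and 61.7% of the clone C8 list. Among the regions common to all lists its changes were smaller, at 7.6 points for clone D and -0.6 for C8. The false discovery rate of site 5 in the authors' column was 0.108 in wild type, 0.0117 in clone D and 0.0038 in clone C8.

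Beta site 1 (chr7:110941310-110941785), at -18.5 kb from Hbb-b1, had an enrichment of 17.8 in wild type (rank 24132), 14.8 in clone D (rank 17450) and 23.3 in clone C8 (rank 14611). It was better placed in both clones. Its false discovery rate in the authors' column was 0.162 in wild type, 0.0029 in clone D and 0.0019 in clone C8. The −log10 p was 8.16, 11.9 and 12.4. At a −log10 p of at least 10 it was the 1 region of the windows that both clones had and wild type lacked. That limit was reached by 55.8% of all peaks in wild type, 73.8% in clone D and 69.4% in clone C8. The share of such regions over the whole series was not computed.

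The 4 beta regions called in 1 list each were weak. Beta site 4 (chr7:111023084-111023309), 1.38 kb from site 3, was called in clone D only (enrichment 9.06, −log10 p 5.74, rank 25407). Beta site 7 (chr7:111150248-111150562) was also called in clone D only (6.59, 5.52, rank 29218). Beta site 8 (chr7:111178733-111179139) was called in clone C8 only (7.30, 5.24, rank 32122), and beta site 9 (chr7:111179499-111179865) in wild type only (9.73, 5.45, rank 39219). Sites 8 and 9 lay 0.75 kb apart without overlapping. By −log10 p sites 4, 7, 8 and 9 stood at 94.0%, 95.4%, 97.1% and 94.3% from the top of those lists. Their false discovery rates in the authors' column were 0.0442, 0.0525, 0.157 and 0.599, in the same order.

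**Figure D3:**
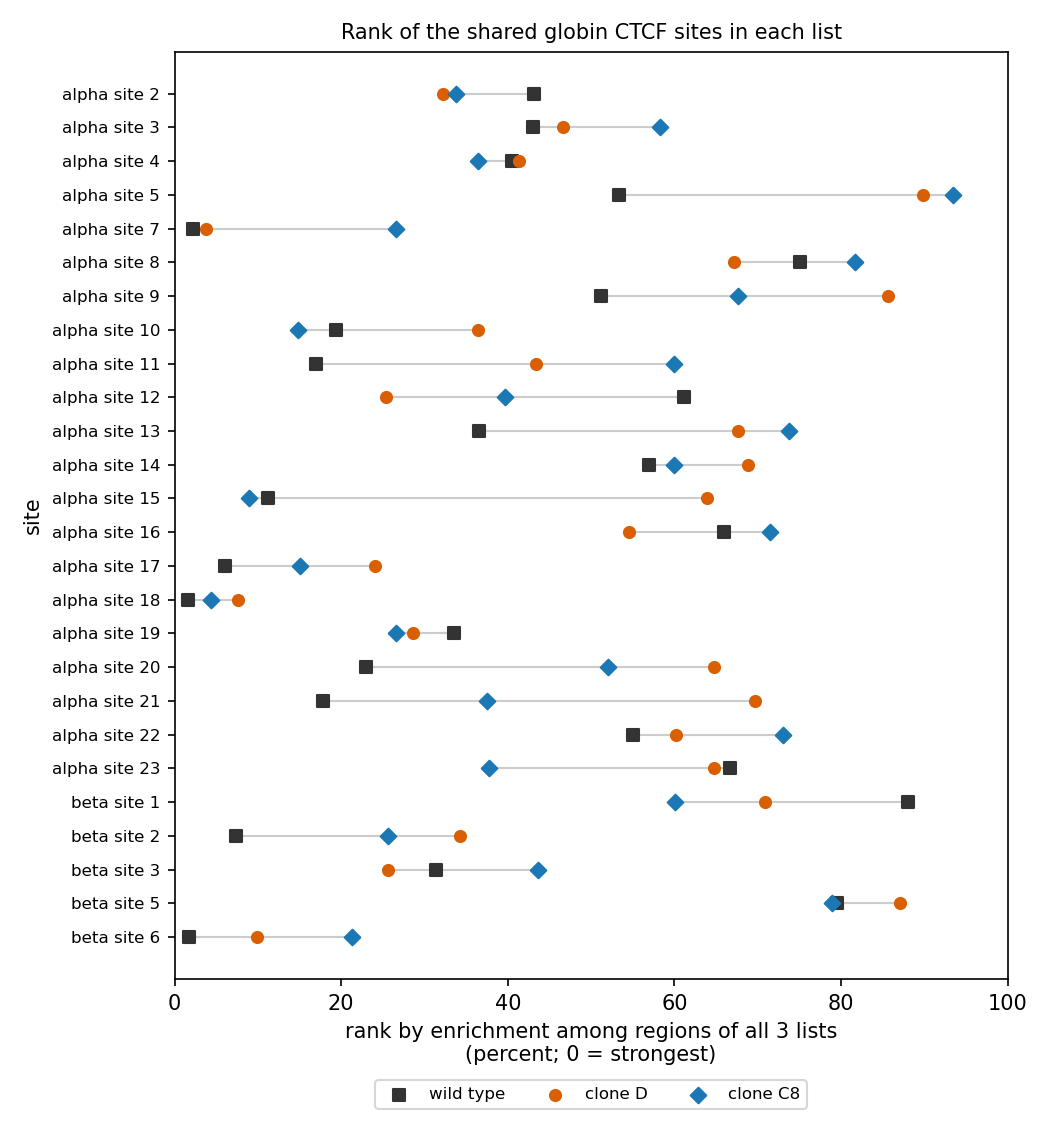
Rank of the 26 shared sites by enrichment among the 23933 regions common to all lists, in percent (0 is the strongest), for wild type (squares), clone D (circles) and clone C8 (diamonds), with 1 line per site. At alpha sites 11, 13 and 20 wild type lies to the left of both clones, site 15 lies far to the right in clone D only, and site 12 and beta site 1 lie furthest right in wild type.

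Lists of different length make ranks hard to compare, so each shared site was also ranked among the 23933 regions that all lists called. A change of rank below is clone minus wild type in percentage points of these regions, and a positive change means a weaker place in the clone. The median shared site of the windows was at 38.5% in wild type, 50.6% in clone D and 41.7% in clone C8. The median change was 6.8 points for clone D and 7.8 points for C8, against 0.0 and 0.1 over all such regions. Each list ranks the same regions, so changes over all of them balance out by the way they are ranked. In wild type the shared globin sites were better placed than the median common region (38.5% against 50.0%). Neither this change nor the counts below were set against common regions of equal wild-type rank. The clones differed from each other by a median of 12.2 points in the windows and 12.2 points over the series.

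Of the shared sites, 7 of 26 were at least 10 points weaker in both clones, against 17.5% of all common regions. They were alpha sites 5 (36.4 points in clone D, 40.1 points in clone C8), 9 (34.5 and 16.5), 11 (26.4 and 42.9), 13 (31.2 and 37.3), 20 (41.6 and 28.9) and 21 (51.9 and 19.7), and beta site 2 (27.0 and 18.3). By place, they were 4 of the 11 shared sites upstream of Hba-a1, 0 of 2 between Hba-a1 and Hba-a2, 2 of 8 beyond Hba-a2, 1 of 2 on the far side of Hbb-b1 and 0 of 3 beyond the control region.

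At least 10 points stronger in both clones were 2 of 26, against 17.8% of common regions: alpha site 12 (-35.8 and -21.5 points) and beta site 1 (-17.2 and -28.0). Ranked by −log10 p, 6 of 26 were weaker and 3 stronger, against 15.6% and 16.1% of common regions. Of the 7 weaker sites 5 were weaker by that measure too. Alpha site 21 (20.2 and 2.6 points) and beta site 2 (20.7 and 9.3) were not. Alpha site 17 (20.6 and 21.7) was weaker in both clones by −log10 p only. Of the 2 stronger sites 1 was stronger by that measure too. Alpha site 12 was not, and alpha sites 2 and 4 were stronger by −log10 p.

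**Figure D4:**
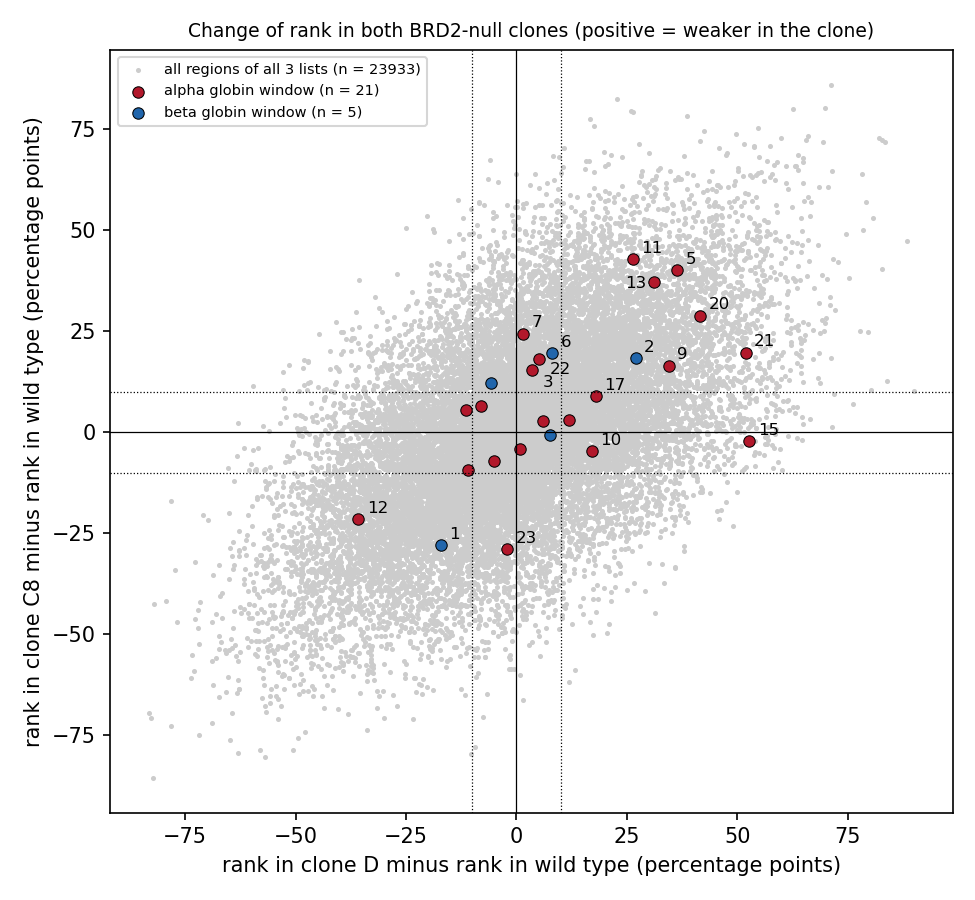
Change of rank in clone C8 against the change in clone D, in percentage points, for all 23933 regions common to the lists (grey) and for the 21 alpha (red) and 5 beta (blue) sites, with site numbers at the larger changes and dotted lines at 10 points. The globin sites lie within the grey cloud, with 7 in the upper right corner, where both clones are weaker, and 2 in the lower left.

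Scale bore on these counts. As a percent of each deposited list, 11 of 26 sites were at least 10 points weaker in both clones and 0 stronger, but 27.9% and 6.85% of all common regions were too. With clone D alone, 11 sites were weaker and 4 stronger (31.0% and 30.1% of common regions). With clone C8 alone, 12 were weaker and 3 stronger (30.2% and 29.6%). Wild type was ahead of both clones at 14 of the 26 sites, behind both at 5 and between them at 7, and over all common regions it was ahead at 35.2% and behind at 35.0%. All these comparisons share the 1 wild-type list, so a wild-type value that was high or low by itself moves both clones' changes together.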

How the data were processed

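CTCF libraries of wild-type, clone D and clone C8 G1E-ER4 cells were used. The 3 input libraries were not analysed here. The tools bcl2fastq 1.8.4 and Bowtie 1.0.0 and the build mm9 are named per the submitters' processing notes. For the peak caller and its use of inputs, names and settings were not given in the sources used here. Each CTCF library had 1 peak list from the authors. Its column 7 is the authors' fold enrichment (a ratio), column 8 the authors' −log10 p, and column 9 the deposited false discovery rate (a q-value, as a fraction).

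Peaks of different lists were joined into regions on an overlap of 1 bp or more, and each region took its strongest peak per list. Windows and gene positions came from the rule that defined the sites. All sites are named. Members and gene lists were chosen with earlier results of these data known, and the ranking among common regions, the 10-point limit, the pairs under 2 kb and the search of promoters were added after the data were seen. The planned search of peaks for the CTCF consensus was not run, since no mm9 genome was used. RefSeq promoters (GRCm38.p6, 250 bases before to 50 after a start) were searched by the CTCF core consensus, 12 positions, both strands. Labels state no separate cultures. Python 3.11.15, pandas 2.3.3, numpy 2.4.6, SciPy 1.17.1 and matplotlib 3.10.9 were used. Tested on simulated data, the overlap code placed 3000 of 3000 regions correctly.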

Additional observations from a re-analysis of the deposited data

How the results depend on the processing

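Of 93 values under an alternative, 70 stayed within limits (a factor of 1.5 for counts, the interval of a share, the spread between clones for a median rank) and 23 moved. The inner part of each window held 13 shared alpha regions, 0 in wild type only, and 100% of its wild-type peaks were overlapped by clone D, clone C8 and both. Windows of double width held 8 shared beta regions and 8 in wild type only. With only peaks whose −log10 p reached 10, 3 beta regions were shared, 1 region was called in wild type alone and 1 was found by both clones but not by wild type. Extension by 500 bp and lists of equal length each left 1 region in wild type only. For the counts under these settings no share over the whole series was computed, and the number of regions depends on the window width itself. The median rank of shared beta sites by −log10 p was 30.7% of the wild-type list, 41% of clone D and 40.4% of clone C8, against 18.8%, 27.7% and 32.5% by enrichment, and 25.4% in wild type at equal length. Rank as percent of each list, chosen after seeing the data, gave 11 weaker and 0 stronger sites. Leaving out each clone gave 1 to 2 regions absent from wild type, 11 to 12 weaker and 3 to 4 stronger sites, since 1 list in place of both then decided. For the other changes the cause was not tested.

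No paired analysis was possible because wild type and each clone gave 1 CTCF library, and no value rests on a test. Replicate numbers are not in the labels, and those used here follow the order of the samples and only name them. Unknown depth limits every absence, above all of the weak beta sites.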

Other observations

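Peak positions were close across the lists. The centres of the 26 shared globin sites ranged over a median of 78.5 bp between the lists, from 29.0 bp at beta site 5 to 165.5 bp at alpha site 2, against a median of 67.5 bp over the 23933 common regions. Alpha site 18, among the strongest, ranged over 29.5 bp. The median width of the peaks in the windows was 454 bp for wild type, 540.5 for clone D and 452 for clone C8, against 402, 489 and 417 bp over the whole lists.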
